A study of Mus musculus with 6 samples.

Results

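The genes described here are 10 members of the amino acid branch of the integrated stress response. They are the transcription factor gene Atf4, its partner Ddit3 (which encodes CHOP), the response genes Trib3, Sesn2, Chac1 and Asns, and the serine and one-carbon enzyme genes Phgdh, Psat1, Shmt2 and Mthfd2. They were chosen by gene symbol, with earlier results of these data known. All 10 were among the 41079 genes listed and the 14618 genes with enough counts to be tested.

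RNA-seq was performed on primary microglia, the resident macrophages of the brain, from C57Bl/6N mice aged 1 to 3 days. The cells were grown in flasks fed with L-929 conditioned medium and collected by shaking, in the same way for both conditions. In 3 control cultures they were then kept in serum-free DMEM/F12 without the agents named next. In 3 cultures under optimized conditions the medium also contained human TGFbeta, human IL34 and CX3CL1 at 100 ng/mL each, and, as the methods of the study add, an insulin-transferrin-selenium mix and cholesterol, and the wells carried a collagen IV coating. These agents and the coating were applied together, so that their separate effects cannot be told apart. The libraries came from cultures, not from sorted cells. Genes that mark microglia were abundant in all 6 libraries, with a summed level of 8535 to 9397 CPM in control and 13017 to 17209 CPM under optimized conditions (CPM, library-scaled counts after TMM correction for composition). The count totals were between 20628148 and 27261839 per library.

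In the integrated stress response, kinases that sense amino acid shortage, misfolded proteins, viral RNA or lack of haem phosphorylate the translation initiation factor eIF2. Protein synthesis then slows in general, while the Atf4 message is translated more, because short upstream reading frames normally keep ribosomes from its coding sequence. ATF4 and its C/EBP partners bind composite sites (C/EBP-ATF response elements) and switch on genes for amino acid uptake, amino acid synthesis, tRNA charging and mitochondrial folate metabolism. Serine is made from a glycolytic intermediate by PHGDH, PSAT1 and the phosphatase PSPH in turn, and SHMT2 and MTHFD2 pass its carbon on to folate in mitochondria. Much of the control of ATF4 is translational, so that its mRNA level is no measure of its activity.

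The ATF4 recognition sequence was looked for at the starts of the 10 genes, as 8 letters, TGATGNAA, on both strands, from 250 bases before to 50 bases after the transcription start. These stretches are shown because they are the places where the letters occur. Capitals mark the 8 letters, which are written in the direction of the gene and may be on either strand.
Ddit3, chr10:127126351-127126378, + strand: ttgccaaacaTTGCATCAtccccgcccc
Chac1, chr2:119181520-119181547, + strand: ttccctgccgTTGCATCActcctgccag
Asns, chr6:7693215-7693242, - strand: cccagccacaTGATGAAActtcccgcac
Trib3, chr2:152185949-152185976, - strand: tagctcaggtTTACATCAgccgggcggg

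Coordinates are of GRCm39, the build to which the reads were mapped. The letters of Ddit3 lay at bases -199 to -192 from the start of its canonical GENCODE transcript, in an intron of longer transcripts. Those of Chac1 lay at -159 to -152 from the canonical start, in an exon of at least 1 other transcript. Those of Asns (-23 to -16) and Trib3 (15 to 22) were found from the starts in the RefSeq promoter table, and both lay in an exon of at least 1 GENCODE transcript. With GENCODE starts, 2 of 10 genes held the letters, against 3.758% of 20998 genes with a window, and with RefSeq starts 3 of 10 (Trib3, Chac1 and Asns) against 4.511% of 27025. The fuller 9-letter form TGATGNAAT contains the 8 letters. Among the 10 it was present only in Ddit3 with GENCODE starts, and in 0.857% of all genes with a GENCODE window. It was in 0 of 10 with RefSeq starts, against 1.084% of 27025. The cyclic AMP response element TGACGTCA was in none of the 10 windows and in 2.486% of all GENCODE windows. The windows of Atf4, Sesn2, Phgdh, Psat1, Shmt2 and Mthfd2 held none of these letters, which describes these windows only.

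Of the 10 genes, 4 fell under optimized conditions (Ddit3, Asns, Shmt2 and Mthfd2), 1 rose (Psat1), and 5 did not pass the threshold of an adjusted p of 0.05 (edgeR quasi-likelihood test, Benjamini-Hochberg adjustment over all genes tested). The fitted log2 fold change was negative in 9 of 10, with a median of -0.40, against 0.01 over all 14618 genes. Among all genes tested, 29.8% passed, 15.2% lower and 14.7% higher. Thus 4 of 10 lower was above the share of all genes, whereas 1 of 10 higher was, for so few genes, close to it. Because the 10 genes were chosen with earlier results of these data known, these shares are descriptions only. In CPM, all 3 optimized libraries lay below all 3 control libraries in 6 of the 10 genes, against 22.5% of all genes, and above them in 1 of 10, against 21.4%. The remaining 3 genes overlapped. In bulk RNA, fewer cells of a type and less RNA per cell cannot be told apart.

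**Figure D1:**
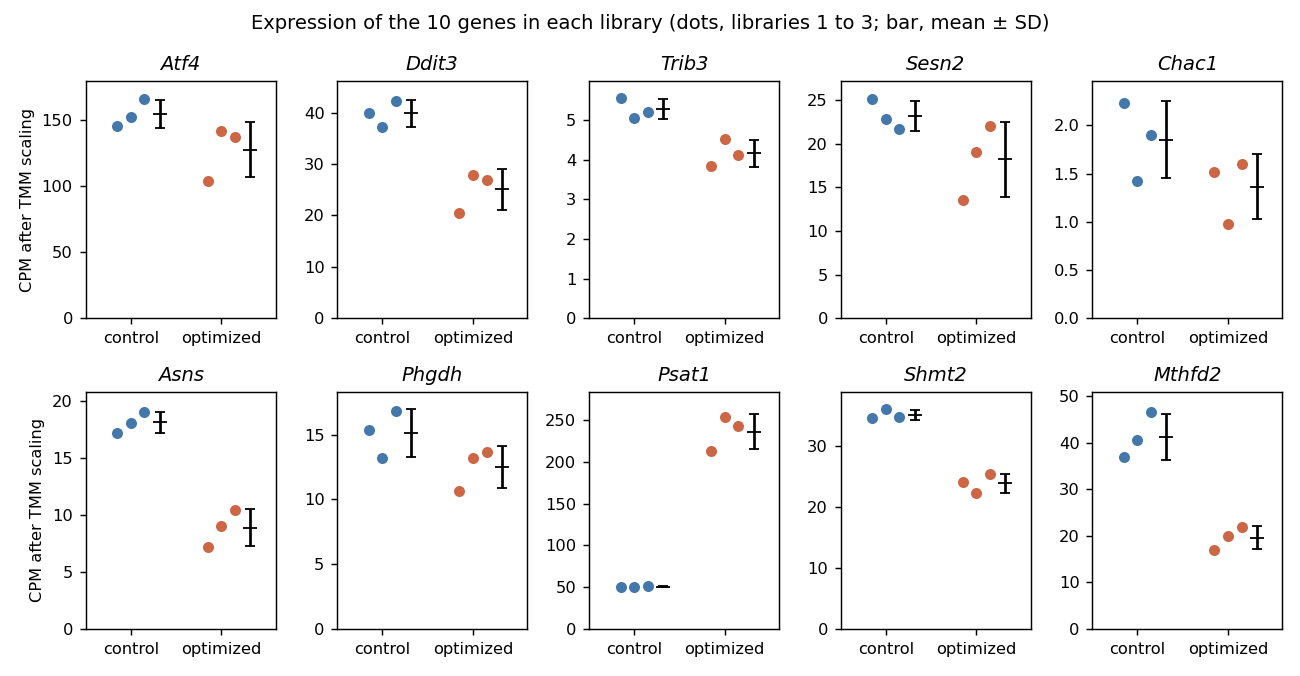
CPM after TMM scaling (y axes, each from 0) of the 10 genes in the 3 control and the 3 optimized libraries. Dots are libraries 1 to 3 from left to right and the bars give mean ± SD. Psat1 sits near 50 CPM in control and above 200 CPM in each optimized library, whereas Asns and Mthfd2 sit at 49.0% and 47.5% of their control level in the fit.

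Psat1, the aminotransferase of the serine pathway, showed the largest change of the 10 genes. It was at 49.97, 50.6 and 51.1 CPM in the control libraries and at 213, 254 and 242 CPM in the optimized libraries. The controls were nearly identical, and every optimized library was more than 4 times above them. The means were 50.6 ± 0.58 and 236 ± 21.3 CPM (SD, n = 3 each), a 4.67-fold rise (log2 fold change 2.22, SE 0.09, edgeR adjusted p = 1.8e-07). This put Psat1 at rank 215 from the highest fold change among 14618 genes. It rests on 1143 to 1397 reads per control library and 4490 to 5964 per optimized library. Psat1 lies at chr19:15882039-15924701 on the minus strand and shares no exon bases with another listed gene. It had 3 genes with transcripts of at least 90% identity over at least 100 bases. Only 1 of them is listed, Shmt1, with 56 to 85 reads per library. How reads shared with the others were counted is not given in the sources used here.

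The other enzymes of serine synthesis did not pass the test. Phgdh, the first and rate-limiting enzyme, was at 15.3, 13.2 and 16.8 CPM in control and at 10.7, 13.2 and 13.6 CPM under optimized conditions (log2 fold change -0.28, SE 0.14, edgeR adjusted p = 0.17). The groups overlapped in CPM, and did not overlap in the deposited FPKM values. Phgdh had 25 genes with transcripts of at least 90% identity over at least 100 bases; the 4 of them that the table lists had 0 reads in every library, and how reads shared with the others were counted is not given in the sources used here, so its level is uncertain. Psph, the last enzyme of the pathway, is named here after its values were seen. It was at 7.11 ± 0.47 CPM in control and 7.10 ± 1.11 CPM under optimized conditions (SD, n = 3 each; log2 fold change -0.002, SE 0.15, edgeR adjusted p = 0.99). Psph shares 465 exon bases with Cct6a on the other strand.

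Within a library, the ratio of 2 FPKM values (read counts scaled by gene length and library) does not depend on the scaling of that library. These ratios were chosen after the values were seen and are given with no test. The ratio of Psat1 to Phgdh was 0.98, 1.15 and 0.91 in control and 5.99, 5.78 and 5.34 under optimized conditions. The ratio of Psat1 to Psph was 4.49 ± 0.25 and 21.1 ± 1.61 (SD, n = 3 each). Per length, PHGDH and PSAT1 messages thus stood at about the same level in control and were far apart under optimized conditions. The FPKM of Psat1 was computed by the authors with a gene length of about 6397 bases, which sets its absolute level but not its change.

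**Figure D2:**
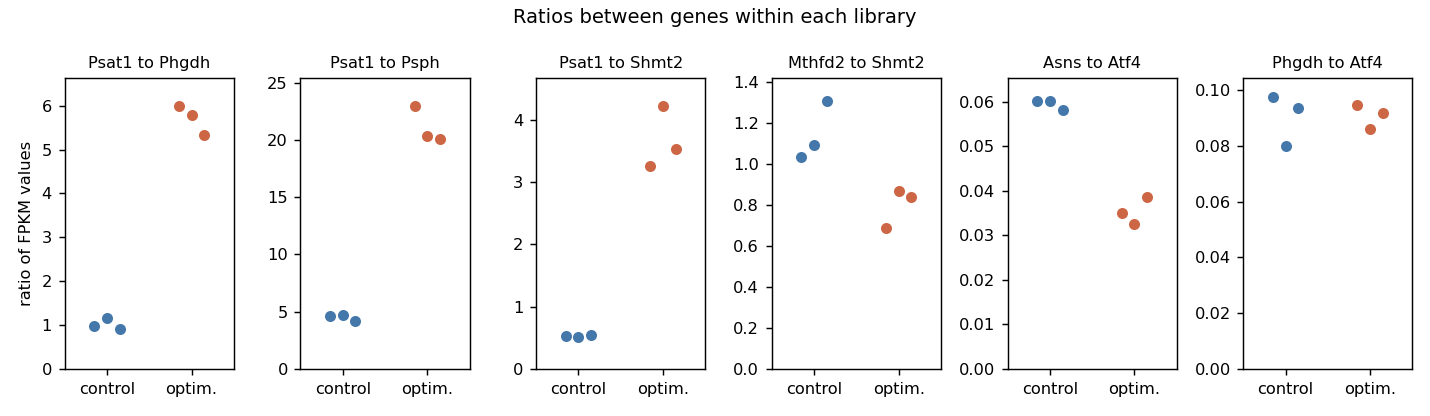
Ratio of the FPKM values of 2 genes (y axes, each from 0) in each control and optimized library, dots for libraries 1 to 3. The ratios of Psat1 to Phgdh, Psph and Shmt2 are higher in every optimized library, those of Mthfd2 to Shmt2 and Asns to Atf4 are lower, and Phgdh to Atf4 overlaps.

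PHGDH and PSAT1 are abundant in astrocytes, which grow beside microglia in the flasks. Of 10 astrocyte markers 9 were in the table, and none of the 9 was at 0 in every library. Their summed level was 25.6 to 28.7 CPM in control and 27.7 to 32.2 CPM under optimized conditions, and none of the 9 passed the test. Aldh1l1, another astrocyte marker that was not in the list, fell (log2 fold change -1.83, edgeR adjusted p = 3.8e-06), and with it, added after seeing the data, the sum was 42.5 to 43.8 CPM in control and 32.6 to 36.9 CPM under optimized conditions. The direction of the astrocyte sum thus depends on this gene. The 9 listed astrocyte markers also moved in different directions. Gfap was at 4.18 CPM in control and 4.68 CPM under optimized conditions, with overlap. Gja1 and Sox9 (log2 fold changes 0.49 and 0.54) were higher in every optimized library than in any control. Slc1a2 and Slc1a3 (-0.59 and -0.51) were lower in every optimized library. Fibroblast markers summed to 21.3 to 27.8 CPM in control and to 36.6, 22.01 and 78.7 CPM in optimized libraries 1 to 3, with none passing the test. Psat1 was at 213, 254 and 242 CPM in optimized libraries 1 to 3, and its relation to the fibroblast sums was not tested. Oligodendrocyte markers summed to 125 to 140 CPM in control and 156 to 190 CPM under optimized conditions. These came mostly from Mbp, which rose by 0.34 on the log2 scale. Neuron markers summed to 2.05 to 3.41 CPM in control and 3.93 to 4.26 CPM under optimized conditions. Among them, Nefl rose from 0.23 ± 0.06 to 1.14 ± 0.31 CPM (SD, n = 3 each, log2 fold change 2.30, edgeR adjusted p = 0.0019). Nefl had 4 to 7 reads per control library and 19 to 35 per optimized library, and Map2 and Rbfox3 did not pass. The summed microglia markers given above were higher in every optimized library too, and the part of these shifts in the level of Psat1 was not tested.

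Mthfd2 and Shmt2, the mitochondrial enzymes that take carbon from serine into folate, both fell. Mthfd2, a dehydrogenase and cyclohydrolase, was at 36.8, 40.5 and 46.6 CPM in control and at 17.0, 19.9 and 21.9 CPM under optimized conditions. All optimized libraries were below all controls. The fall was 2.11-fold (log2 fold change -1.08, SE 0.13, edgeR adjusted p = 0.00013). Shmt2, the serine hydroxymethyltransferase of mitochondria, went from 34.7, 36.1 and 34.7 CPM to 24.1, 22.3 and 25.4 CPM, again with no overlap. Its fall was 1.47-fold (log2 fold change -0.55, SE 0.09, edgeR adjusted p = 0.0012). The ratio of Mthfd2 to Shmt2 in FPKM was 1.14 ± 0.14 in control and 0.80 ± 0.10 under optimized conditions (SD, n = 3 each). Shmt2 shares 727 exon bases with Ndufa4l2 on the other strand, a gene with at most 2 reads per library.

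The ratio of Psat1 to Shmt2, genes that changed in opposite directions, was 0.53 ± 0.01 in control and 3.67 ± 0.49 under optimized conditions in FPKM (SD, n = 3 each). In control, the order of FPKM levels from high to low was Atf4 (90.8), Mthfd2 (17.7), Ddit3 (15.9), Shmt2 (15.5), Sesn2 (8.88), Psat1 (8.25), Phgdh (8.19), Asns (5.40), Trib3 (2.61) and Chac1 (1.20). Mthfd2, Ddit3 and Shmt2 overlapped with their neighbours in that order, as did Sesn2, Psat1 and Phgdh. Under optimized conditions Psat1 (34.9) stood second after Atf4 (67.9), with no overlap on either side. Shmt2 (9.60), Ddit3 (9.07), Mthfd2 (7.63), Sesn2 (6.31) and Phgdh (6.15) followed, each overlapping with the next, and then Asns (2.40), Trib3 (1.86) and Chac1 (0.807), which did not overlap. Atf4 was thus the most abundant and Chac1 the least abundant message per length in both conditions.

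Asns encodes asparagine synthetase, which makes asparagine from aspartate and glutamine. It was at 17.2, 18.1 and 19.0 CPM in control and at 7.15, 9.07 and 10.4 CPM under optimized conditions. The highest optimized library was well below the lowest control. The means were 18.1 ± 0.91 and 8.87 ± 1.63 CPM (SD, n = 3 each), a 2.04-fold fall (edgeR adjusted p = 0.00038). Of 10483 genes with a mean of at least 5 CPM, those with levels most like Asns over the 6 libraries were Aars1, Dglucy and Mvk, each with a Pearson r of 0.999 between log2 CPM values. The 6 points fall into 2 conditions and share their libraries, so these values are descriptions only. The antisense gene 1700012J15Rik, which overlaps Asns, had 0 reads in every library.

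Ddit3, whose product CHOP is a transcription factor of the late stress response, fell 1.59-fold. It was at 40.0, 37.1 and 42.3 CPM in control and at 20.5, 27.9 and 26.8 CPM under optimized conditions, without overlap (log2 fold change -0.67, SE 0.13, edgeR adjusted p = 0.0027). In GENCODE M39, Ddit3 shares 3576 exon bases with Mars1, a tRNA synthetase gene on the other strand. The deposited FPKM values imply a length of about 2611 bases for Ddit3, so the overlap in the annotation that was counted must be smaller and is not known. The strand setting of the counting is not given in the sources used here, and without it reads of the 2 genes cannot be told apart where they overlap. Mars1 itself fell (48.2 ± 5.45 to 38.0 ± 0.58 CPM, SD, n = 3 each; log2 fold change -0.34, SE 0.10, edgeR adjusted p = 0.026). The difference between the changes of Mars1 and Ddit3 was not tested. The call of Mars1 was lost in 3 of 16 alternative fits.

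Atf4 mRNA was at 146, 153 and 166 CPM in control and at 104, 142 and 137 CPM under optimized conditions. The groups did not overlap, but the optimized libraries were spread widely, and the difference did not pass the test (log2 fold change -0.28, SE 0.12, edgeR adjusted p = 0.12). Without optimized replicate 1, the lowest library, the log2 fold change was -0.15 (edgeR adjusted p = 0.18), and without optimized replicate 2 it was -0.37 and passed (edgeR adjusted p = 0.046). Optimized library 1 held the lowest level of the 3 optimized libraries in 8 of the 10 genes, against 43.1% of all genes tested. The ratio of Asns to Atf4 in FPKM was 0.059 ± 0.001 in control and 0.035 ± 0.003 under optimized conditions, and that of Ddit3 to Atf4 was 0.18 ± 0.01 and 0.13 ± 0.001 (SD, n = 3 each). The ratio of Phgdh to Atf4 was 0.090 ± 0.009 and 0.091 ± 0.004. The gene lies at chr15:80139372-80141745 and shares no exon bases with another listed gene.

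Trib3, Sesn2 and Chac1 did not pass the test. Trib3, a pseudokinase that is induced by ATF4 and CHOP and restrains them, was at 5.55, 5.06 and 5.198 CPM in control and at 3.84, 4.51 and 4.11 CPM under optimized conditions, without overlap (log2 fold change -0.34, SE 0.16, edgeR adjusted p = 0.13). Sesn2, a leucine sensor upstream of mTORC1, was at 25.1, 22.8 and 21.7 CPM and at 13.6, 19.1 and 22.01 CPM (log2 fold change -0.35, SE 0.16, edgeR adjusted p = 0.14). Only the highest optimized library of Sesn2 reached the controls. Chac1, which degrades glutathione, had 35 to 52 reads per control library and 23 to 33 per optimized library. Its log2 fold change of -0.45 had an SE of 0.30 (edgeR adjusted p = 0.31), and the groups overlapped.

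**Figure D3:**
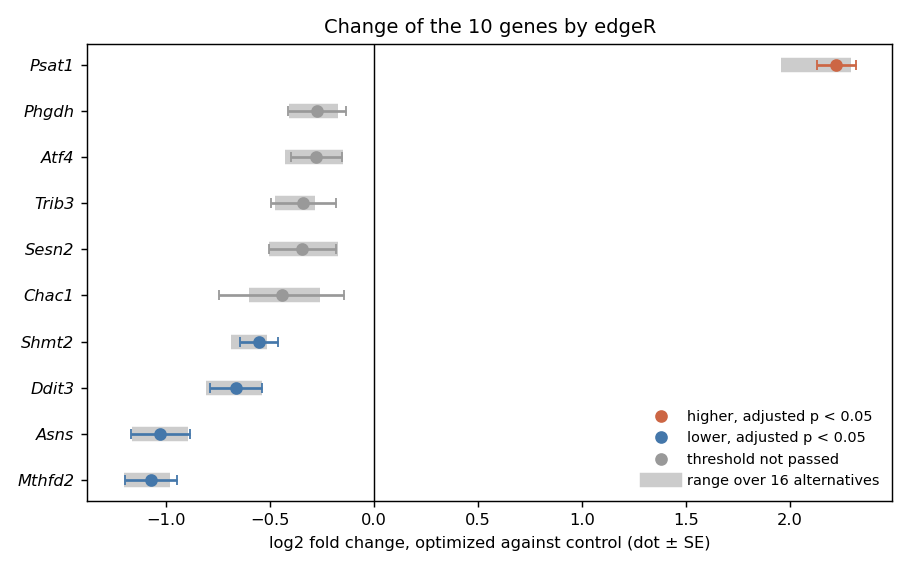
Log2 fold change of optimized against control (x axis) for the 10 genes, by edgeR, with dots ± SE. Grey bands span the values of 16 alternative fits. The bands of Psat1 (1.96 to 2.30), Asns (-1.16 to -0.90) and Mthfd2 (-1.21 to -0.98) stay far from 0.

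The number of genes called lower moved with the settings. Psat1, Asns, Mthfd2, Ddit3 and Shmt2 kept their direction and their call in all 16 alternatives. With totals alone in place of TMM factors, the median log2 fold change of all genes shifted from 0.01 to -0.12, and 8 of the 10 genes, instead of 4, were called lower (Atf4, Ddit3, Trib3, Sesn2, Asns, Phgdh, Shmt2 and Mthfd2), against 21.7% of all genes. The calls of Atf4, Trib3, Sesn2 and Phgdh thus differed between TMM factors and totals alone. With relative log expression factors none of them was called. Atf4 was also called lower in fits that kept TMM factors: with the replicate block, without optimized replicate 2 and with the gene length trend removed.

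Genes around this pathway were grouped in lists of 117 genes that are not members, of which 109 were tested. Of these, 28 fell and 20 rose, with a median log2 fold change of -0.12. These counts were read against 15.2% lower and 14.7% higher in all genes. Without any 1 of the control libraries, or without optimized replicate 3, 11 to 12 list genes rose. The share of all genes that rose was also lower in these fits, at 10.7% to 11.3%. Many of the genes named below, among them Aars1, Aldh1l1, Atf5, Eif2ak4, Gdf15, Gss, Nupr1, Oplah, Sesn1, Slc46a1, Vars1 and Yars1, share exon bases with a neighbouring listed gene, and where counting ignored strand their reads can be mixed with it.

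Aminoacyl-tRNA synthetases load amino acids onto tRNAs, and many are known ATF4 targets. Of 14 genes listed as such, the tRNA exporter Xpot included, 8 fell, none rose, and all 14 had a negative fold change, with a median of -0.31. Vars1 for valine went from 86.8 ± 5.45 to 52.6 ± 3.12 CPM and Aars1 for alanine from 162 ± 4.58 to 107 ± 10.5 CPM (SD, n = 3 each; log2 fold changes -0.72 and -0.60, edgeR adjusted p = 0.00017 and 0.00080). Cars1 for cysteine (-0.56) and Yars1 for tyrosine (-0.51) also fell. Nars1 for asparagine, which had the highest CPM of the list, had a log2 fold change of -0.21 that did not pass (edgeR adjusted p = 0.087). Of 7 other cytosolic synthetases 1 fell, Hars1 for histidine (-0.36, call lost in 3 of 16 alternatives), and the median was -0.07. The difference between these lists was not tested. Aars1 shares 1326 exon bases with Exosc6 on the same strand, where strand cannot separate them.

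The kinases that phosphorylate eIF2 moved in different directions. Eif2ak4 (GCN2, the sensor of uncharged tRNA) rose from 30.8 ± 1.08 to 50.04 ± 8.70 CPM (SD, n = 3 each; log2 fold change 0.70, SE 0.12, edgeR adjusted p = 0.0019). Eif2ak3 (PERK, the sensor of the endoplasmic reticulum) rose by 0.37, whereas Eif2ak2 (PKR, the sensor of double-stranded RNA) fell by 0.34 on the log2 scale. Impact, an inhibitor of GCN2, fell by 0.36. The calls of these last 3 genes were lost in 5, 7 and 4 of 16 alternatives. The other 10 of the 14 genes in this list, among them the eIF2B subunits and the phosphatase subunits Ppp1r15a and Ppp1r15b, did not pass.

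Among 8 transcription factors that pair with ATF4 or act beside it, 4 fell and 1 rose. Nupr1, a small stress-induced chromatin protein, fell from 31.2 ± 2.13 to 11.2 ± 1.90 CPM (SD, n = 3 each; log2 fold change -1.48, SE 0.13, edgeR adjusted p = 2.3e-05). Batf3 (-0.75) and Atf5 (-0.60), itself a target of CHOP, fell too. Cebpg, which forms heterodimers with ATF4, rose from 61.3 ± 2.29 to 106 ± 9.59 CPM (log2 fold change 0.79, SE 0.09, edgeR adjusted p = 0.00012). Atf3, named for the highest CPM of the list, was at 297 ± 18.3 and 288 ± 37.8 CPM, and did not pass the test.

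**Figure D4:**
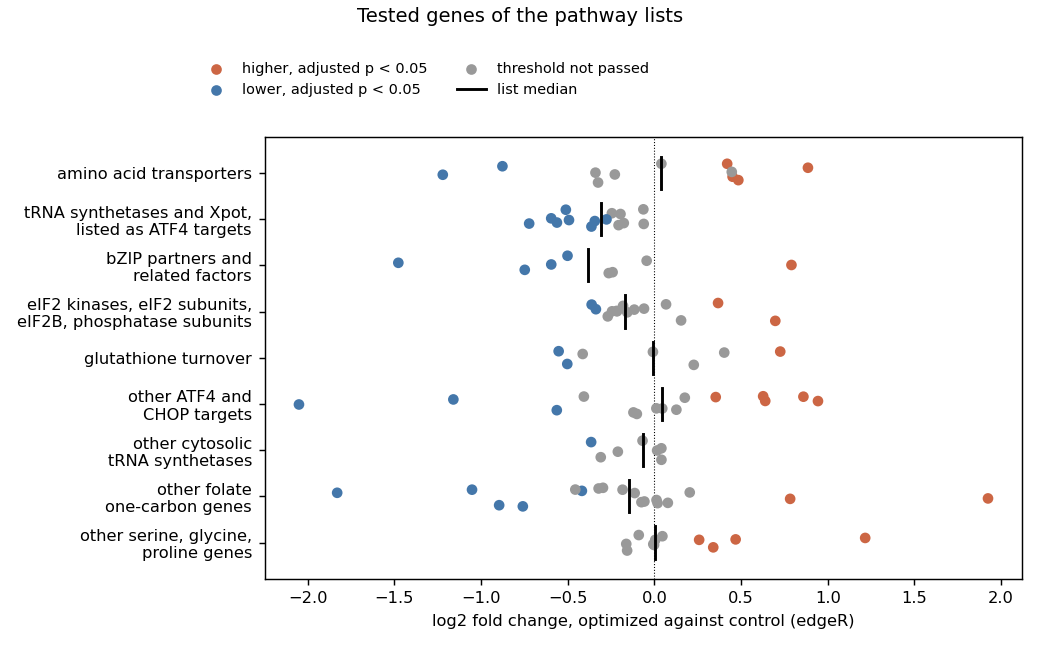
Log2 fold change of optimized against control (x axis, edgeR) of each tested gene in 9 lists around the pathway. Dots are genes, coloured where the adjusted p is under 0.05, and black bars are list medians. The synthetases listed as ATF4 targets are all below 0, while other lists hold genes on both sides.

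Of the 11 amino acid transporters tested out of 12, 4 rose and 2 fell. Slc7a11, the cystine importer that supplies glutathione synthesis, fell from 21.5, 22.8 and 21.6 CPM to 11.98, 6.26 and 10.1 CPM (log2 fold change -1.22, SE 0.20, edgeR adjusted p = 0.0010). Slc7a1, the carrier of cationic amino acids, fell by 0.88 on the log2 scale. Slc7a6 (0.89) and, with calls lost in 6 and 7 of 16 alternatives, Slc38a1 (0.48) and Slc3a2 (0.45), the shared heavy chain of Slc7a11 and related carriers, rose. The light and heavy chains of the cystine importer thus had opposite signs. In glutathione turnover, 2 of 7 genes fell, Gclm (-0.55) and Gss (-0.50), both of glutathione synthesis, and 1 rose, Oplah (0.73), which returns 5-oxoproline to glutamate. Gclc, also of glutathione synthesis, had a log2 fold change of 0.23 that did not pass (edgeR adjusted p = 0.10).

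Among other genes of serine, glycine and proline metabolism, 11 of 14 were tested, 4 rose and none fell, with a median of 0.01. Pycr1 (1.22) and Aldh18a1 (0.34), both of proline synthesis, were among them. Pycr1 had 16 to 20 reads per control library and 27 to 44 per optimized library. Sptlc2, which uses serine for sphingolipids, rose by 0.26 on the log2 scale. The calls of Pycr1, Aldh18a1 and Sptlc2 were lost in 3, 11 and 11 of the alternatives.

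Of 18 further folate genes, 5 fell and 2 rose, with a median of -0.15. Slc46a1, a proton-coupled folate carrier, rose from 22.5 ± 1.03 to 85.6 ± 11.2 CPM (SD, n = 3 each; log2 fold change 1.93, SE 0.11, edgeR adjusted p = 1.3e-06). Aldh1l1, the cytosolic 10-formyltetrahydrofolate dehydrogenase that is also used as an astrocyte marker, fell from 16.3, 15.1 and 18.0 CPM to 4.83, 4.39 and 4.69 CPM (log2 fold change -1.83, SE 0.13, edgeR adjusted p = 3.8e-06). Slc46a1 shares 1786 exon bases with Sarm1 on the other strand.

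Of 15 further ATF4 or CHOP targets tested out of 19, 5 rose and 3 fell. Gdf15, a secreted stress hormone, fell from 9.66, 9.46 and 9.74 CPM to 1.33, 3.53 and 2.03 CPM (log2 fold change -2.05, SE 0.28, edgeR adjusted p = 0.00033). Niban1 fell from 39.3 ± 3.34 to 17.6 ± 1.87 CPM (log2 fold change -1.16, edgeR adjusted p = 3.7e-05). Vegfa (0.94) and Ddit4 (0.86), both also induced by hypoxia, rose, the call of Ddit4 being lost in 4 of 16 alternatives. Lonp1, a mitochondrial protease with the highest CPM of the list, had a log2 fold change of -0.10 and did not pass.

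Among 8 paralogues of the 10 genes, 2 fell (Sesn1 and Atf5) and 1 rose (Trib1). Sesn1, the sestrin mainly under p53 and FOXO control, fell from 194 ± 7.23 to 83.1 ± 3.61 CPM (SD, n = 3 each; log2 fold change -1.22, SE 0.08, edgeR adjusted p = 2.8e-06), while Sesn2 did not pass. Trib1 rose by 0.41 (call lost in 7 of 16 alternatives), whereas Trib2 (-0.38), Sesn3 (0.67), Chac2 (0.40), Mthfd2l (-0.46) and Shmt1 (0.01) did not pass. Shmt1, the cytosolic counterpart of Shmt2, was at 3.02 ± 0.66 and 3.05 ± 0.73 CPM, and the sign of its change flipped to negative in 7 alternatives. The differences between a gene and its paralogue were not tested.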

How the data were processed

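Paired-end reads were mapped by the authors to mm39 with HISAT2 and counted with featureCounts in Galaxy. Versions, annotation and strand setting are not given in the sources used here. Raw, unnormalized counts for each gene and FPKM values were deposited by the authors for all 6 libraries. Samples were grouped by their labels. The study calls the cultures biological replicates. Libraries of a group differed beyond counting noise (chi-square per degree of freedom 10.7 to 78.8), so none was a copy of another. Totals of 20628148 to 27261839 counts and a coefficient of variation of 0.13 between replicates set the precision.

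Differential expression was tested on the counts with edgeR 4.0.16 (R 4.3.3): filterByExpr, TMM factors, glmQLFit and glmQLFTest without further terms, Benjamini-Hochberg adjustment over 14618 genes and a threshold of 0.05. The SE is the size of the log2 fold change divided by the square root of F. The procedure was tested on simulated counts. Alternatives were other scalings, filters, DESeq2 1.42.0, limma 3.58.1 on log2(FPKM + 1) and log2(FPKM + 0.1), removal of a gene length trend, a replicate block and leaving out each library. Positions and exon overlaps are from GENCODE M39, which need not be the annotation that was counted. Promoter windows were also taken from a RefSeq table (GRCm38.p6), whose matches were placed on GRCm39 by sequence. The members and lists were chosen with earlier results of these data known. Named were, from each list, up to 4 called genes with the largest change and the most abundant gene (for the other synthetases only the called gene is given), all paralogues, the 3 genes most like Asns, and genes sharing exons with a member. Some genes that this rule names are not reported here.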

Additional observations from a re-analysis of the deposited data

How the results depend on the processing

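Of the 10 genes, Psat1, Asns, Mthfd2, Ddit3 and Shmt2 kept their direction and call in all 16 alternatives, and the other 5 kept their direction. Members called lower, 4 in the reported fit, were 8 with library size alone and 7 in each of the 3 limma fits (log2(FPKM + 1), log2(FPKM + 0.1), and log2(FPKM + 1) with a mean FPKM of at least 1). Of all genes tested, 21.7% were lower with library size alone and 22.3%, 22.3% and 25.6% in the limma fits, against 15.2% as reported. Under these 4 settings the list genes called higher, 20 as reported, were 11, 10, 10 and 9. The share of all genes called higher was 10.4%, 10.1%, 10.2% and 10.2%, against 14.7% as reported. The list genes called lower, 28 as reported, were 43 in both the fit scaled by library size alone and the limma fit of log2(FPKM + 0.1). All genes called higher were 1176 against 2142 with limma and a mean FPKM of at least 1. The share of higher calls among all calls was 49.1% as reported, 32.3% with library size alone, and 31.1%, 31.3% and 28.4% in the limma fits. Leaving out 1 library gave 4 to 5 members lower, 1 higher, 11 to 20 list genes higher and 20 to 31 lower. It gave 1603 to 2591 for all genes called higher and 1646 to 2643 for all genes called lower. These were 10.7% to 17.4% and 11% to 17.7% of the genes tested. The lowest list count, 11, came without control replicate 1 and without control replicate 3, and 12 came without control replicate 2 or optimized replicate 3. Fewer samples enter these fits.

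Atf4 was called in 7 alternatives, Trib3 and Phgdh in 4 each and Sesn2 in 1. The Atf3 log2 fold change, at -0.04 as reported, turned to 0.059 without optimized replicate 1, in a range of -0.13 to 0.059 when 1 library was left out. The Shmt1 log2 fold change, at 0.01 as reported, turned to -0.11 with library size alone, -0.0102 without the filter, -0.15 without control replicate 2 and -0.20 without optimized replicate 1 (range -0.20 to 0.16 when 1 library was left out), -0.0703 in both limma fits on log2(FPKM + 1) and -0.12 with log2(FPKM + 0.1). The cause of these changes was not tested.

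The deviations of same-numbered libraries had r of 0.27, -0.01 and 0.18, and those of differently numbered libraries -0.29 to 0.19. With so few libraries per group, whose deviations are tied to each other, these values cannot decide whether the numbers pair the samples. With the replicate block, 4924 genes were called against 4360, with 5 members lower (Atf4 added, edgeR adjusted p = 0.033), 1 higher, and 32 list genes lower and 20 higher. Of all genes tested with the block, 17.3% were lower and 16.4% higher. Of the 10 genes, Chac1 had the fewest reads (23 to 52 per library) and the largest SE (0.30).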
